A study of Mus musculus with 2 samples.

Results

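The genes described here are the segments of the T cell receptor alpha chain, taken as the loci of the deposited table whose biotype is a functional T cell receptor gene and whose name begins with Trav, Traj or Trac. They number 160 of 55246 loci: 108 variable segments (Trav), 51 joining segments (Traj) and the constant gene Trac. All 160 lie on the plus strand of chromosome 14 (GRCm38), and all 160 have identical coordinates in the GENCODE M21 annotation of that build. The RNA came from regulatory T (Treg) cells of the colon lamina propria of female mice; Treg cells restrain other immune cells and rely on the transcription factor Foxp3. One library was wild type (WT), and the other, labelled Exon2KO, came from mice with a Foxp3 allele lacking exon 2. Strain, age, the sorting scheme and the number of mice behind a library are not given in the sources used here. With 1 library per genotype there is no replicate check of any difference, so intervals cover counting error in these 2 libraries only and no test of the genotypes was possible.

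An alpha chain gene is assembled in the thymus by joining a Trav segment to a Traj segment, and RNA splicing then connects the joined segment to Trac. The chain pairs with a beta chain, and the CD3 proteins carry the signal of the pair into the cell. Each T cell clone keeps the segments that it joined, so the mix of segments in the RNA of a population reflects its clones and how strongly each transcribes its receptor. Joining segments downstream of the one used remain in the unspliced transcript until they are removed with the intron. The Trav region holds large internal duplications, whose copies carry a d or an n in their names and can be nearly identical in sequence to the segments without such a letter.

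Near-identity between copies bears on many Trav counts, and it is shown first for 4 sets with copies whose shares differed at least 2-fold between the libraries. The lines below give the last 240 bases of the spliced coding sequence of each segment, 5′ to 3′, from the GENCODE M21 transcripts. Capitals mark letters that differ from the first segment of the same family.
Trav9-1: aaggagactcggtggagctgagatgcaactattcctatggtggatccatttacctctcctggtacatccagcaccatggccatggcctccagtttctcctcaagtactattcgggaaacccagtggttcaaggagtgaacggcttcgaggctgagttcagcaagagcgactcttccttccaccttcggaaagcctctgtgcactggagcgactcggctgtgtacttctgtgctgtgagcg
Trav9d-1: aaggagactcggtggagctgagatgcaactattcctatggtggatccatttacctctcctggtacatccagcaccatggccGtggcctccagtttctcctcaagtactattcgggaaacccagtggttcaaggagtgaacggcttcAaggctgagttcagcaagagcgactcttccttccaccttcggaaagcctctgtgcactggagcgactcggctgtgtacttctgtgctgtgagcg
Trav7-4: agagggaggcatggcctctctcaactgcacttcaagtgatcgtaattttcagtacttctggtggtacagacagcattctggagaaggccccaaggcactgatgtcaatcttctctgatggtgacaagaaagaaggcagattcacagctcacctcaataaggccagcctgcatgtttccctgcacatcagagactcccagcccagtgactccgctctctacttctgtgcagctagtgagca
Trav7d-4: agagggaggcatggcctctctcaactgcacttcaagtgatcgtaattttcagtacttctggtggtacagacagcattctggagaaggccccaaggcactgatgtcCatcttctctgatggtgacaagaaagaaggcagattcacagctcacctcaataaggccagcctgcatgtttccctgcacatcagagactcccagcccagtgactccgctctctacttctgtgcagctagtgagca
Trav7n-4: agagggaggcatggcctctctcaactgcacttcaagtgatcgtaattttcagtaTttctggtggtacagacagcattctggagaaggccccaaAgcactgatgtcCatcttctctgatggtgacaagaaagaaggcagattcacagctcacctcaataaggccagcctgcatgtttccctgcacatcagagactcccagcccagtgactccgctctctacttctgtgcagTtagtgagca
Trav16: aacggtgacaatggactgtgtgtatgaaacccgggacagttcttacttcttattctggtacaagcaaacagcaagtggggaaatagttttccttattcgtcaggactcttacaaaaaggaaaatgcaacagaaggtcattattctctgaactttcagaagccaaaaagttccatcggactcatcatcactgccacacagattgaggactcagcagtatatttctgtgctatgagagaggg
Trav16d-dv11: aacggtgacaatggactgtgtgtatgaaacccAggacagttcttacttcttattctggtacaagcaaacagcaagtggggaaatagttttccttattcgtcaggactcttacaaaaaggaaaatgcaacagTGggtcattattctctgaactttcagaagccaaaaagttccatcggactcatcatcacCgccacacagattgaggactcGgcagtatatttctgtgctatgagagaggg
Trav16n: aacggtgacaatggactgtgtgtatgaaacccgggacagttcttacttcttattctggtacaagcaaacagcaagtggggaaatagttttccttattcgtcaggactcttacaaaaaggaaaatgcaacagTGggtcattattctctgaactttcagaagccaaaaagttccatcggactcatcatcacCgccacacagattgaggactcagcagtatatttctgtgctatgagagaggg
Trav4-4-dv10: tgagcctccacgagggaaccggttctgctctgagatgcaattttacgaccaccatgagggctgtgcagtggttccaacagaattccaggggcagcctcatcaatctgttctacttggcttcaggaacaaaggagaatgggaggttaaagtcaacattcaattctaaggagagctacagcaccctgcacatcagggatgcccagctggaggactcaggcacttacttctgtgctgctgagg
Trav4n-4: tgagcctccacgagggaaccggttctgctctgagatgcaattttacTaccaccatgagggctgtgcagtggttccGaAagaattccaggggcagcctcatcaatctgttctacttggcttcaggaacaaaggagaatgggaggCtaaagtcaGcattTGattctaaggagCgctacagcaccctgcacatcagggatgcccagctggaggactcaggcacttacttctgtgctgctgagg
Over these 240 bases Trav9d-1 differs from Trav9-1 at 2 positions, and Trav7d-4 and Trav7n-4 differ from Trav7-4 at 1 and 4. Trav16d-dv11 and Trav16n differ from Trav16 at 5 and 3 positions, and Trav4n-4 differs from Trav4-4-dv10 at 8. The full transcript of Trav4n-4 is identical to that of Trav4d-4, and that of Trav6n-7 to that of Trav6d-7. The division of reads among such copies is uncertain, and the read length and the handling of reads that match several places are not given in the sources used here. For 38 of the 108 Trav segments, no 50-base stretch of the transcript was unique among all GENCODE transcripts on either strand. Reads were listed at 0 in both libraries for 22 Trav segments, and 20 of them were among those 38. Across the 108 segments, which share their library and are not independent, the percentage of unique stretches and the reads over both libraries had a Spearman rho of 0.60.

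Reads assigned to loci numbered 16281133 for WT and 15412425 for Exon2KO. The limit behind a count of 0, taken as 3 reads, is 1.84e-05% for WT and 1.95e-05% for Exon2KO. Foxp3 had 6991 and 20946 reads, a count over the whole gene that does not check the deletion of 1 exon. All 4 Treg markers were detected, and Ikzf2, a transcription factor of many Treg cells, had 8476 and 440 reads. All 5 markers of CD4 T cells were detected too, with 4593 and 5367 reads of Cd4. One of the 5 was called, by the 2-fold rule given further on: Cd5, a surface regulator of T cell receptor signals, was lower, with 5894 and 2908 reads. The rule called 15.3% of all genes, so 1 of 5 is near the background. Of the markers of other cells, none was at 0 in either library. B and plasma cell genes (5 of 5 detected) summed to 568741 and 514788 reads. The epithelial genes (3 of 3) summed to 1023 and 3643 reads but did not move together: the keratins Krt8 (160 and 1604) and Krt19 (81 and 1430) were higher and Epcam (782 and 609) was not. Summed reads were, for gamma-delta T cell genes (5 of 5), 156 and 1131, and for CD8 genes (2 of 2), 161 and 97. Of the gamma-delta list 4 of 5 were called higher, against 8.15% of all genes, with most of the reads from Tcrg-C1, and Trdc was not called. The 4 genes listed for invariant T cells and the molecules they recognise summed to 739 and 300 reads, most of them from Cd1d1 (643 and 203), which presents lipids to such cells. The part of these other cells in the results was not tested.

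The alpha chain as a whole was lower in the Exon2KO library. Its 160 genes held 13752 WT reads, 0.0845% of the library (95% Wilson interval 0.0831 to 0.0859), and 10475 Exon2KO reads, 0.0680% (0.0667 to 0.0693). Trac, the constant gene that every alpha chain transcript contains (ENSMUSG00000076928, 54220521 to 54224206), made up most of this, with 10741 reads in WT and 8049 in Exon2KO. Per length, it stood at 728 and 541 FPKM in the authors' scaling. Its log2 ratio, Exon2KO over WT with TMM scaling and a prior count of 2, was -0.44 (95% Clopper-Pearson interval -0.48 to -0.40). In bulk RNA, fewer cells of a type and less RNA per cell cannot be told apart.

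The variable segments followed Trac closely and the joining segments less so. Summed Trav reads went from 2518 to 1961, a log2 ratio of -0.39 (-0.47 to -0.30), and summed Traj reads from 493 to 465, at -0.11 (-0.30 to 0.08). The interval of the Traj ratio includes 0, so no difference in Traj reads was detectable at this depth. For each Trac read there were 0.234 Trav reads in WT and 0.244 in Exon2KO, and 0.0459 and 0.0578 Traj reads.

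The partners of the alpha chain in the receptor complex were less uniform. The beta chain constant genes Trbc1 (10118 and 8375 reads) and Trbc2 (11270 and 8924 reads) had log2 ratios of -0.30 (-0.34 to -0.26) and -0.36 (-0.40 to -0.32). The CD3 chains ranged from -0.25 (-0.30 to -0.20) for Cd3d to 0.15 (0.10 to 0.20) for Cd247, with Cd3g at -0.16 (-0.19 to -0.13) and Cd3e at 0.00 (-0.05 to 0.06). Of the 8 genes listed for the complex, 7 had enough reads and 0 were called by the 2-fold rule, against 15.3% of all genes tested, so a count of 0 among so few genes does not set the list apart. Ptcra, the surrogate alpha chain of thymocytes, and the 3 genes of receptor rearrangement, Rag1, Rag2 and Dntt, had 0 reads in both libraries.

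Individual segments were compared with all genes of the table. A gene counted as called when its scaled reads differed at least 2-fold and the counting interval excluded equal levels, with a minimum of 10 reads summed over the libraries. Across all 17363 such genes this rule called 15.3%, with 8.15% higher and 7.12% lower in the Exon2KO library. The read minimum was met by 88 of the 160 alpha chain genes, of which 6 were called higher and 19 lower. All of these were Trav segments except Traj3, called higher with 2 and 13 reads. The median log2 ratio of the 88 was -0.41, against 0.0043 over all genes tested. In the authors' deposited table, 4.58% of the genes with an adjusted p-value have one below 0.05. Of 126 alpha chain genes with such a value, 8 were lower and 2 higher on that criterion. These values come from the same 2 libraries, so no replicate stands behind them. The 8 are Trav7-4, Trav4n-4, Trav16n, Trav8n-2, Trav7-1, Trav6n-7, Trav16d-dv11 and Trav6-2, and the 2 are Trav9-1 and Trav9d-1.

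Usage, the share of each segment among all Trav reads, does not depend on the scaling of the libraries or on the overall level of the alpha chain. Of the 108 Trav segments, 72 had reads in both libraries, 5 in WT alone and 9 in Exon2KO alone, the last with at most 6 reads each. Of the 10 most used segments of each library, 4 were shared, and of the 10 most used sets of same-numbered copies, 7 were shared. Of the 53 segments with at least 20 reads over both libraries, 7 had a share at least 2-fold higher in Exon2KO and 12 a share at least 2-fold lower, with an interval that excluded equal shares (35.8% of those segments). With same-numbered copies summed, 3 of 39 sets were higher and 5 lower by this rule.

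Trav9-1 held the largest share of Trav reads in the Exon2KO library. This segment (ENSMUSG00000096900, 53488045 to 53488567) went from 87 WT reads to 264 Exon2KO reads. Its share was 3.46% (2.81 to 4.24) in WT, rank 5, and 13.5% (12.0 to 15.04) in Exon2KO, rank 1, a log2 ratio of shares of 1.93 (1.61 to 2.33). Its copy Trav9d-1, which differs at 2 of the positions printed above, had 9 and 43 reads (2.35, 1.56 to 3.84). Both copies were higher in the Exon2KO library. Their summed reads went from 96 to 307 (2.01, 1.70 to 2.38). The sum does not depend on how reads were divided between this pair, but the value of each copy does.

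Trav12-2 (ENSMUSG00000096656, 53616315 to 53616914) was the segment of rank 2 in the Exon2KO library. It had 52 reads in WT and 115 in Exon2KO, shares of 2.07% and 5.86% (log2 ratio of shares 1.47, 1.02 to 2.01). The others with a share at least 2-fold higher were Trav9n-3 (4 and 16 reads), Trav7d-4 (22 and 38), Trav10n (27 and 45) and Trav4-3 (30 and 49).

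Trav7-4 (ENSMUSG00000094766, 53461099 to 53461738) moved in the opposite direction from first place in WT. It had 189 WT reads and 44 Exon2KO reads, a share of 7.51% (6.54 to 8.60) against 2.24% (1.68 to 2.999), with a log2 ratio of -1.70 (-2.25 to -1.26). Its near-identical copy Trav7d-4, 1 position apart over the stretch shown, went the other way, at 1.07 (0.35 to 1.98). Summed over Trav7-4, Trav7d-4 and Trav7n-4, the share was 9.09% in WT and 4.39% in Exon2KO, at -1.04 (-1.43 to -0.69).

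**Figure D1:**
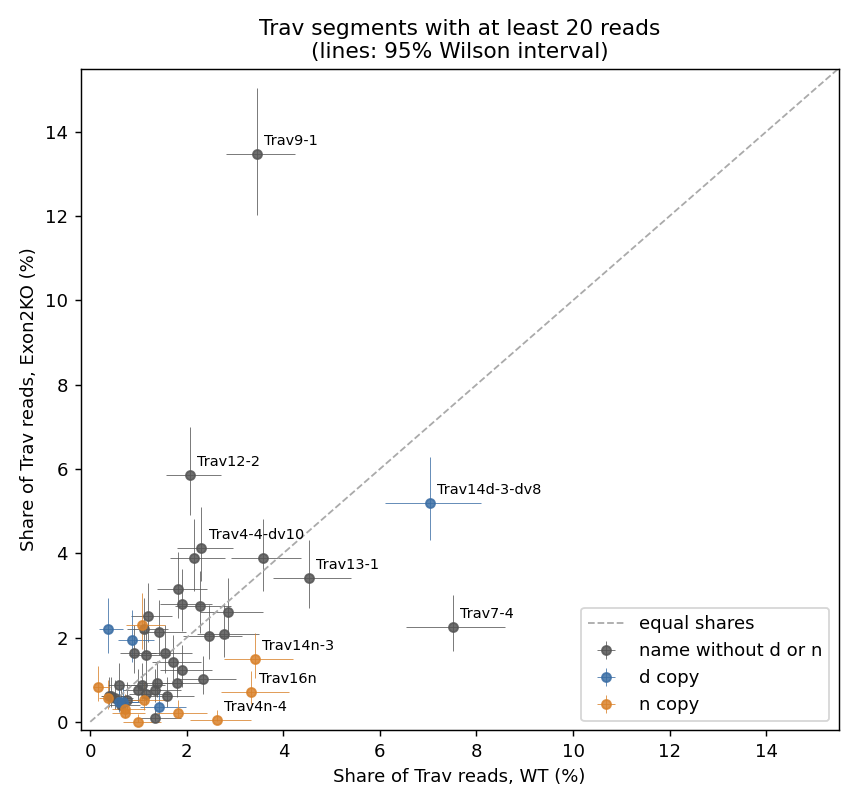
Share of Trav reads in the WT library (x axis, percent) against the Exon2KO library (y axis, percent) for the 53 Trav segments with at least 20 reads, with 95% Wilson intervals and a dashed line of equal shares. Trav9-1 lies far above the line at 13.5% in Exon2KO, and Trav7-4 and several n copies lie below it.

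Several n copies had many reads in WT and few in Exon2KO. Trav4n-4 (53302036 to 53302559), rank 10 in WT, had 66 WT reads and 1 Exon2KO read, a log2 ratio of shares of -4.27 (-11.01 to -3.16). Trav6n-7 had 25 and 0 reads, a share at least 6.49-fold lower when computed against 3 reads. Each has a d copy with an identical transcript, Trav4d-4 or Trav6d-7, and neither of those had reads in either library. The related copies Trav4-4-dv10 (58 and 81 reads) and Trav6-7-dv9 (29 and 31) did not show such a drop. Summed over same-numbered copies, the Trav4-4 set had 124 and 82 reads (-0.23, -0.66 to 0.18) and the Trav6-7 set 54 and 31 (-0.42, -1.13 to 0.22), so for these sets no difference was detectable once copies were pooled.

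In the Trav16 set, the n copy Trav16n had 84 and 14 reads (-2.09, -3.16 to -1.40), whereas Trav16, 3 positions apart above, had 46 and 62 (0.76, 0.22 to 1.37). Trav8n-2 had 46 and 4 (-2.71, -5.10 to -1.71) and Trav14n-3 had 86 and 29 (-1.16, -1.87 to -0.59). With copies pooled, the Trav8-2 set had 61 and 13 reads (-1.74, -2.86 to -0.99), the Trav14-3 set 353 and 207 (-0.41, -0.66 to -0.16) and the Trav16 set 166 and 83 (-0.63, -1.04 to -0.25), all with intervals that excluded equal shares. The Trav8-2 set holds only Trav8d-2 and Trav8n-2. Its copy without a letter, Trav8-2, is a pseudogene left out by the rule. That copy had 26 and 35 reads, the opposite direction, so this set does not pool all copies. Of the 11 n copies with at least 20 reads, 7 had a share at least 2-fold lower and 2 a share at least 2-fold higher, with an interval that excluded equal shares. The 28 n copies together, a grouping made after their values were seen, held 18.1% of Trav reads in WT (16.6 to 19.6) and 9.28% in Exon2KO (8.08 to 10.6). The 34 d copies held 12.9% and 12.7%, and the 46 segments without either letter 69.0% and 78.0%. Of the 36 segments without a letter that had at least 20 reads, 3 were called higher and 4 lower by the same 2-fold rule, and of 6 such d copies 2 were higher and 1 lower. Outside the n copies, Trav7-1, a segment with 91.7% unique 50-base stretches, had 34 and 2 reads (-2.91, -6.83 to -1.76).

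**Figure D2:**
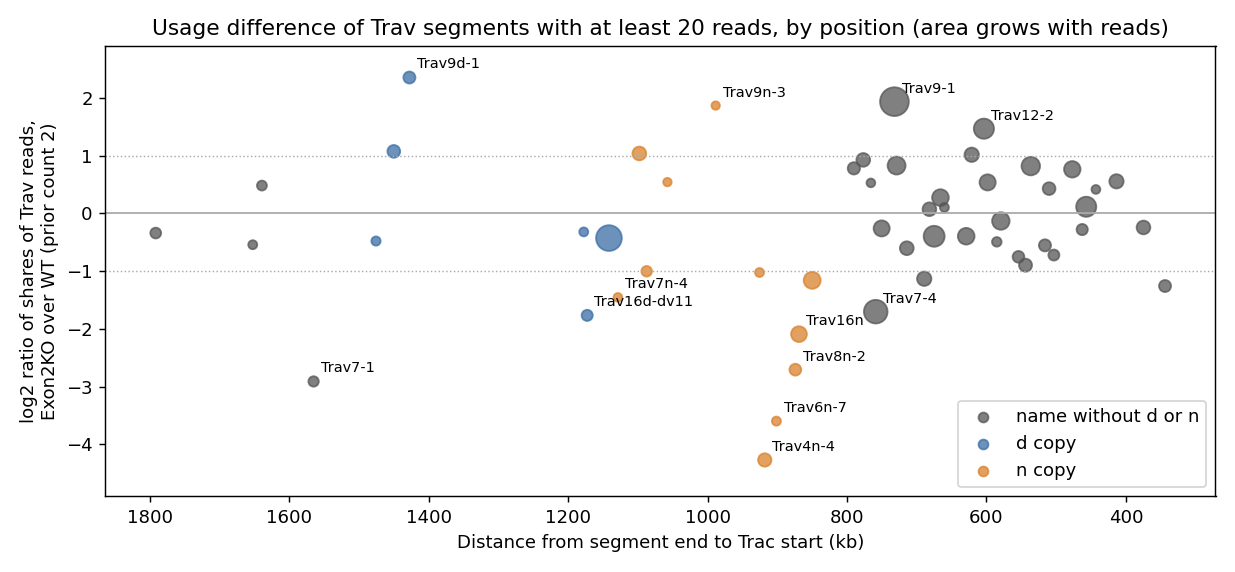
Log2 ratio of shares of Trav reads, Exon2KO over WT (y axis), against the distance from each Trav segment to the start of Trac in kilobases (x axis), for segments with at least 20 reads; point area grows with reads, and dotted lines mark 2-fold. The n copies Trav4n-4, Trav6n-7, Trav8n-2 and Trav16n are low and lie near one another, and Trav7-1, at -2.91, is low far from them.

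Several much used segments were less than 2-fold apart in share. Trav6-5 had 54 and 76 reads, with an interval that excluded equal shares (0.83, 0.33 to 1.38). Trav14d-3-dv8, which can also be joined into a delta chain, was rank 2 in WT and rank 3 in Exon2KO, with 177 and 102 reads (log2 ratio of shares -0.43, -0.80 to -0.07). Trav14-3 had 90 and 76 reads (0.11, -0.34 to 0.57), Trav14-2 had 72 and 51 (-0.13, -0.68 to 0.40) and Trav14-1 had 57 and 54 (0.27, -0.28 to 0.85). Trav13-1, rank 3 in WT, had 114 and 67 reads (-0.40, -0.86 to 0.04). Equal shares lay within the intervals of these last 4 segments, which does not show that they were used alike.

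Sums over families, the number after Trav, are less affected by how reads are split among copies. The Trav9 family, with 10 segments, held 9.33% of Trav reads in WT (8.26 to 10.5) and 19.9% in Exon2KO (18.2 to 21.7), a log2 ratio of 1.08 (0.85 to 1.33). Within it the direction was not uniform, since Trav9-4 had 45 and 18 reads (-0.90, -1.84 to -0.14) and Trav9-2 had 70 and 41 (-0.40, -1.004 to 0.17). Trav12 followed, with 5.76% and 10.8% (0.89, 0.59 to 1.22). In the other direction, the Trav7 family held 16.3% (14.9 to 17.8) and 9.18% (7.98 to 10.5), at -0.82 (-1.09 to -0.57). Trav16 went from 6.59% to 4.23%, Trav8 from 5.04% to 3.47% and Trav14 from 19.7% to 16.1%. Pseudogenes are not in these sums. The pseudogene Trav8-2 had 26 and 35 reads, against the direction of the Trav8 family. Another, Trav9n-1, had 16 and 22, in the direction of the Trav9 family. Trav21-dv12, the only segment of its family here, had 40 and 12 reads and was at least 2-fold lower in share (-1.26, -2.44 to -0.42). By the interval alone, 2 of the 21 families had a higher share, 5 a lower one, and 14 an interval that included equal shares, among them Trav6, Trav4 and Trav13. With the 2-fold limit as well, 1 was higher (Trav9) and 1 lower (Trav21).

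**Figure D3:**
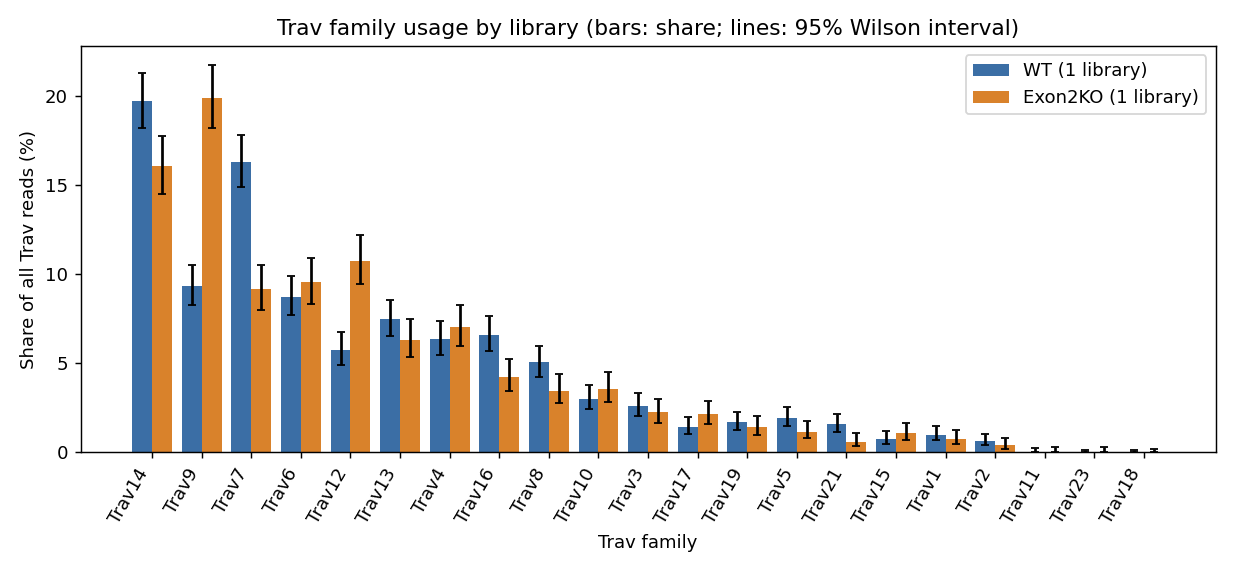
Share of all Trav reads (y axis, percent) for each of the 21 Trav families (x axis) in the WT and Exon2KO libraries, with 95% Wilson intervals as lines. The bars for Trav9 and Trav12 are taller in Exon2KO and those for Trav7 and Trav16 taller in WT.

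The spread of Trav usage was narrower in the Exon2KO library at the level of single segments. The 5 leading segments took 26.1% of Trav reads in WT (24.4 to 27.8) and 32.5% in Exon2KO (30.5 to 34.6), and the 10 leading ones 41.1% and 48.5%. The effective number of segments, the exponential of the Shannon entropy, measured 48.5 for WT (46.9 to 50.1) and 40.1 for Exon2KO (38.2 to 42.0). The inverse Simpson index, which weights common segments more, was 35.7 and 24.9. The number of segments with reads moved the other way, at 77 in WT and 81 in Exon2KO, or 76.0 and 81 at an equal number of 1961 reads.

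The size of this difference depended on the level at which segments were counted. With same-numbered copies summed into 49 sets, the effective numbers were 29.3 for WT (28.2 to 30.3) and 26.3 for Exon2KO (25.2 to 27.5), intervals that do not overlap. Over the 21 families they were 12.2 (11.9 to 12.6) and 11.7 (11.2 to 12.1), with overlapping intervals. The beta chain variable segments, measured in the same libraries, had 15.6 (15.4 to 15.9) and 14.5 (14.2 to 14.9) effective segments of 22, and their 5 leading segments took 48.5% and 55.1% of Trbv reads.

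The difference between the usage profiles was also expressed as the percentage of reads that would have to change segment to turn one into the other. It was 33.0% for Trav segments, 25.2% with same-numbered copies summed and 18.7% for families. Counting error alone makes this percentage larger than 0. The chi-square statistic of the same comparison, divided by its degrees of freedom, was 10.3 over 65 Trav segments with at least 10 reads and 12.7 over 18 families, where counting error alone averages 1. Reads of a clone are not independent, so this ratio is a description of the 2 libraries.

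**Figure D4:**
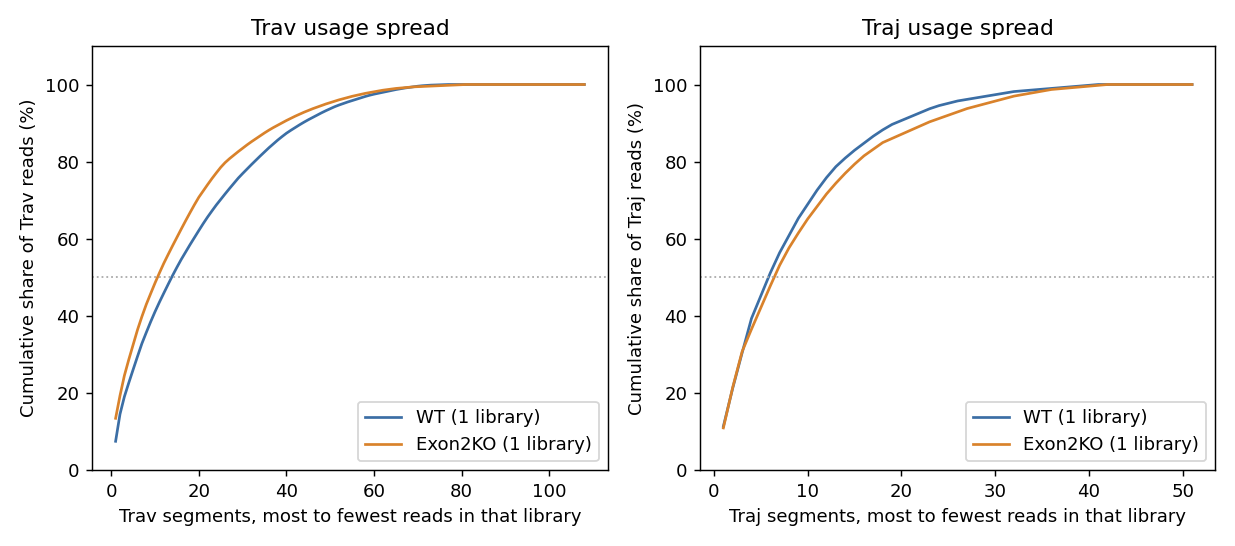
Cumulative share of reads (y axis, percent) against the number of segments counted from the most to the least used in each library (x axis), for Trav (left) and Traj (right). For Trav, 14 segments in WT and 11 in Exon2KO reach the dotted line at 50%, and for Traj 6 and 7.

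Position along the locus was examined in 4 blocks of 27 Trav segments, ordered from the far end toward Traj. Each block nearer to Traj held a larger share than the one before it in both libraries. The blocks held 8.22%, 13.8%, 34.2% and 43.8% of Trav reads in WT, and 8.87%, 11.7%, 31.9% and 47.6% in Exon2KO. The block nearest to Traj, from Trav7-5 to Trav23, held 3.81 percentage points more in Exon2KO (95% Newcombe interval 0.87 to 6.75). The second block held 2.14 points less (-4.09 to -0.16), a direction that turned without the dv segments, to 0.74 points more. These blocks also differ in how many near-identical copies they hold, with a median of 0% unique 50-base stretches in the second and 61.7% in the fourth, and the part of this in the trend was not tested.

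Joining segments carry the end of the variable domain, including a conserved phenylalanine-glycine motif that shapes its fold. The segments below, from the GENCODE M21 transcripts, are shown because they lead Traj usage or stand out within it. Capitals mark the letters TTTGGNNNNGG or TTCGGNNNNGG, the codons for that motif, and the last 3 segments hold no such match.
Traj18: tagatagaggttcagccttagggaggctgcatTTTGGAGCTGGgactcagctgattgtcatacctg
Traj27: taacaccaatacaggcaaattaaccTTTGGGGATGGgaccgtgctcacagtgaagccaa
Traj17: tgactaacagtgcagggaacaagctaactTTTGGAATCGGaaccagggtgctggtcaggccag
Traj12: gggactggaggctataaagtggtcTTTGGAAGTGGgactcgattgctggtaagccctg
Traj19: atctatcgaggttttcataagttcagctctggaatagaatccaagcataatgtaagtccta
Traj20: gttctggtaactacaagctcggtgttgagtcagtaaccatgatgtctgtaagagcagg
Traj33: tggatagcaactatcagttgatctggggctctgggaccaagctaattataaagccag
On the sense strand 42 of the 51 Traj segments (82.4%) hold these letters, and on the other strand 0 of the 51. Among 60-base windows of the Trav transcripts, 0.423% hold them.

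The leading joining segments were largely shared, with 8 of the 10 most used in common. Traj18 (54200777 to 54200842) led in WT with 56 reads, 11.4% of Traj reads (8.85 to 14.5), and had 49 in Exon2KO, 10.5% (8.06 to 13.7). Traj19 (54200386 to 54200446) had 45 and 51 reads and was first in Exon2KO, with 10.97% (8.44 to 14.1). Traj27 had 49 and 43 reads, Traj17 had 44 and 26, and Traj33 had 29 and 18. Traj28 had 26 and 21 reads, and Traj2, the functional segment nearest to Trac, had 18 and 25. Traj19 lies next to Traj18 and, unlike it, lacks the motif letters.

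No Traj segment differed 2-fold in share among the 14 with at least 20 reads (0%). Their log2 ratios of shares ran from -0.79 (Traj23, 29 and 15 reads) to 0.62 (Traj21, 11 and 17 reads), with a median of -0.10. Traj9 had 18 and 27 reads (0.61, -0.24 to 1.62) and Traj12 had 22 and 26 (0.30, -0.55 to 1.21). The Traj profiles differed by 19.4%, with a chi-square per degree of freedom of 1.53 over 22 segments. Only 493 and 465 reads support these shares, so 0 reads still allows a share of up to 0.609% in WT and 0.645% in Exon2KO, and smaller shifts were not detectable at this depth.

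Traj usage was spread over 22.3 effective segments in WT (20.5 to 24.1) and 24.6 in Exon2KO (22.6 to 26.7), intervals that overlap. The 5 leading segments took 45.2% (40.9 to 49.6) and 42.2% (37.7 to 46.7) of the reads. The 9 segments without the motif letters held 107 and 100 reads, 21.7% and 21.5% of Traj reads, of which Traj19 and Traj33 gave the most in each library. Traj20, also without them, had 22 and 12 reads, and Traj3 had 2 and 13. Spliced and unspliced RNA are not separated in gene counts, so a Traj read need not come from a receptor that uses that segment.

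By position, most Traj reads lay in the third of 4 blocks in both libraries, not in the block next to Trac. Of the 4 blocks from the Trav side, the first 2, from Traj59 to Traj30, held 6.90% and 12.0% of Traj reads in WT and 6.88% and 11.2% in Exon2KO. The third, from Traj29 to Traj17, held 61.9% and 54.0%, a difference of -7.89 points (-14.1 to -1.63). The fourth, from Traj16 to Traj2, held 19.3% and 28.0%, a difference of 8.69 points (3.31 to 14.03). Across the 51 segments, the distance to Trac and the reads over both libraries had a Spearman rho of -0.56, a description over segments of the same libraries.

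**Figure D5:**
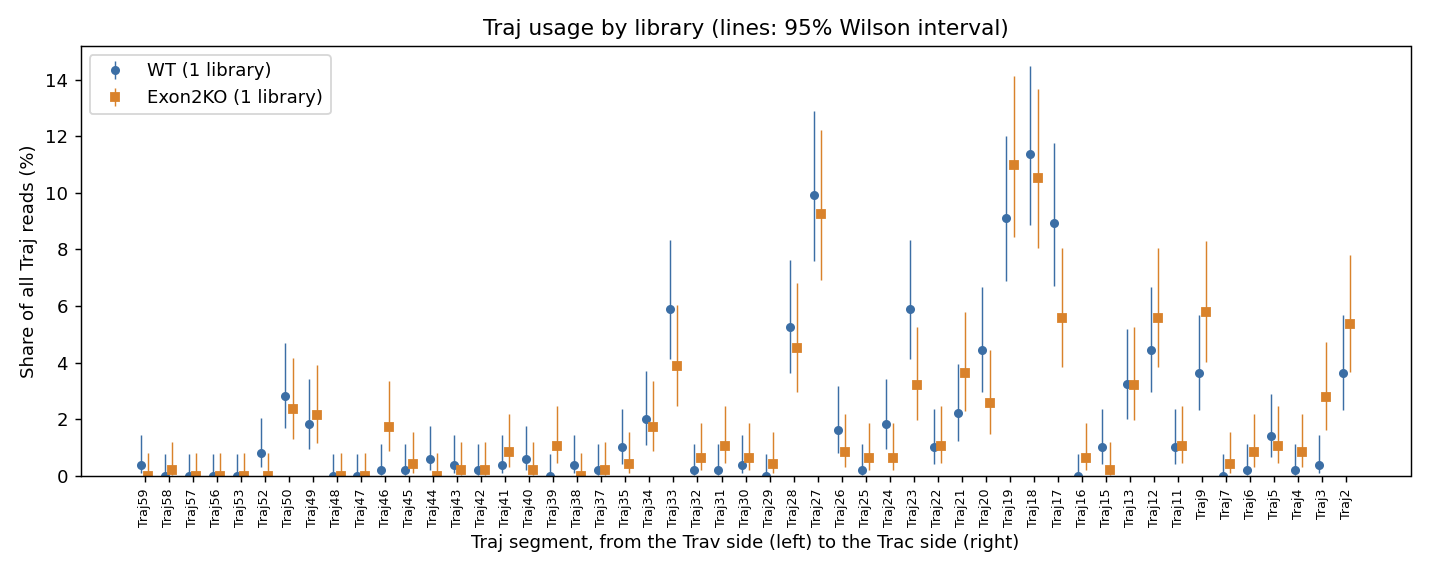
Share of all Traj reads (y axis, percent) for the 51 Traj segments in their order along the chromosome (x axis) in the WT and Exon2KO libraries, with 95% Wilson intervals as lines. Both libraries peak at Traj27 and at Traj17 to Traj19, and the intervals of the libraries overlap at each of these.

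Invariant T cells use fixed alpha chains. Invariant natural killer T cells join Trav11 to Traj18, and mucosal-associated invariant T cells join Trav1 to Traj33. Trav11 had 0 reads in both libraries and Trav11d had 1 in each, and neither has a unique 50-base stretch, while Traj18 was among the 2 most used joining segments. Trav1, all of whose 50-base stretches are unique, had 25 and 15 reads, 0.993% of Trav reads in WT (0.673 to 1.46) and 0.765% in Exon2KO (0.464 to 1.26). Zbtb16, a transcription factor of both cell types, had 11 and 32 reads, and Klrb1c, a natural killer receptor, had 15 and 18.

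The 10 Trav segments that can also serve the delta chain, marked dv in their names, held 386 and 263 reads, 15.3% (13.98 to 16.8) and 13.4% (12.0 to 14.99) of Trav reads. Besides Trav14d-3-dv8, they included Trav4-4-dv10, with 58 and 81 reads (log2 ratio of shares 0.82, 0.34 to 1.36), and Trav6-7-dv9, with 29 and 31. Trav16d-dv11 (36 and 7 reads) and Trav21-dv12 were at least 2-fold lower in share. Trav13-4-dv7 had 27 and 17 reads, Trav15-1-dv6-1 had 13 and 11, and Trav15-2-dv6-2 had 6 and 2. Trav15d-1-dv6d-1 and Trav15d-2-dv6d-2 had 0 reads in both libraries. Trdc, the delta chain constant gene, had 14 and 13 reads, and Tcrg-C1, a gamma chain constant gene, had 123 and 1034. The 5 delta variable segments named Trdv went the other way, with 62 and 12 reads together. Their part in the counts of these segments was not tested.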

How the data were processed

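RNA from 2 samples, 1 WT and 1 Exon2KO, was analysed. The authors deposited raw read counts per locus, FPKM values, and a log2 fold change with p-value and adjusted p-value for their comparison, per the file headers. The submitters' processing notes name HISAT2 2.0.5, StringTie 1.3.3b, featureCounts 1.5.0-p3, DESeq2 1.16.1 and mm10, without roles. Gene length was taken as deposited. The use of strand and the treatment of reads matching several loci are not given in the sources used here.

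All ratios and shares were computed from the counts. Library sizes were scaled with TMM (edgeR 4.0.16, R 4.3.3), with WT at 0.964 and Exon2KO at 1.04. With 1 library per group no model of spread could be fitted, so no p-value was computed. Log2 ratios used a prior count of 2, and their intervals, Clopper-Pearson at 95%, used none. Bounds against 0 reads used 3 reads per library. Shares have Wilson intervals, and effective numbers have delta-method intervals. No molecular identifiers were counted, so reads may not be separate molecules and all intervals cover counting error alone. Functions were tested on simulated data. Python 3.11.15, scipy 1.17.1 and pandas 2.3.3 were used. Alternatives changed the scaling, read minimum, fold, prior count, length, and grouping of copies.

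Named segments were Trac, the 10 Trav and 10 Traj of highest mean share, those with at least 50 reads and the 5 highest or lowest ratios of shares per class, the invariant and dv segments, and list members. Others were named after their values were seen. Members and lists were chosen with earlier results of these data known.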

Additional observations from a re-analysis of the deposited data

Results flagged for a closer look

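Loci within the alpha chain region that lie outside the functional segments also had more reads than a count of 0 allows. Among the pseudogenes, Traj8 (54209918 to 54209954) held 46 WT reads and 45 Exon2KO reads, a count exceeded among functional Traj segments by Traj18 and Traj27 alone in WT and by Traj19 and Traj18 alone in Exon2KO. Trav8-2 had 26 and 35 reads, Trav9n-1 had 16 and 22, Trav13-3 had 5 and 0, Traj51 had 5 and 1, and Traj14 had 4 and 3. In all, 14 of 29 alpha chain pseudogenes had reads, 113 in WT and 114 in Exon2KO. Of the unnamed loci added by the authors, one on the plus strand (53669396 to 53673483) had 39 and 42 reads, and one on the minus strand (53991538 to 53992559) had 0 and 7.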

How the results depend on the processing

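Of 98 recomputed values, 65 stayed within the main counting interval or within 1.5 times the main count, 32 moved further and 1 changed sign. The share of the second Trav block, 2.14 points lower in Exon2KO, was 0.74 points higher without the dv segments. Total counts shift the median log2 ratio of all genes by 0.104, and scaling to CD3 reads by 0.0896. These scalings gave Trac -0.34 and -0.35, and Trav -0.28 and -0.30, respectively.

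Over all genes 1415 were called higher and 1236 lower. A minimum of 50 reads left 650 and 685 of 12730 genes, or 10.5% called against 15.3% in the main setting. Of 38 alpha chain genes that met it, 3 and 8 were called, or 28.9% against 28.4%. A 4-fold threshold left 499 and 408 (5.22% of all genes tested), with 1 and 9 segments (11.4% of the 88 tested). At 1.5-fold, 2105 were higher and 2018 lower (23.7%), with 6 and 27 segments (37.5%). Summing same-numbered copies left 8 of 39 Trav sets at least 2-fold apart in share, against 19 of 53 segments. A minimum of 10 reads added 1 Traj segment (Traj3) to 0.

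Effective numbers of Trav in WT and Exon2KO, 48.5 and 40.1, became 45.7 and 37.0 with at least 10 reads, 43.7 and 35.3 without dv segments, 12.2 and 11.7 for families, 29.3 and 26.3 with copies summed, and 27.5 and 23.9 for segments with at least 50% unique stretches. Exon2KO was the lower in each. The profile difference of 33.0% became 18.7% for families, 25.2% with copies summed and 24.6% (unique segments). For Traj, effective numbers became 17.0 and 17.1 with at least 10 reads, and 18.1 and 20.8 with motif segments only. The alternatives by unique stretches, by summed copies and by motif were chosen after the data were seen. No paired analysis was possible because neither genotype has another library, and for the same reason no library could be left out.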

Other observations

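Delta chain genes lie inside the alpha chain region, between or among the Trav and Traj segments. The 5 named Trdv segments had 62 reads in WT and 12 in Exon2KO together, a log2 ratio of -2.22 (-3.42 to -1.49) with TMM scaling. Trdv1 had 34 and 8 reads, Trdv4 had 15 and 1, Trdv2-2 had 12 and 3, Trdv5 had 1 and 0, and Trdv2-1 had 0 in both. Trdc was nearly level, at 14 and 13 reads (-0.12, -1.34 to 1.06), and the delta joining segments Trdj1 and Trdj2 had 0 reads in both libraries.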
